A study of Mus musculus with 8 samples.

Results

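Egr1 and Egr2 encode zinc-finger transcription factors of the early growth response family, and their transcripts were measured in the visual cortex of mice that had lost 1 eye. The members are the probe sets that the platform annotation pairs with the single symbol Egr1 or Egr2. These 2 genes, of 8251 named on the array, had 3 probe sets among 12422 without controls: 98579_at and 161802_i_at for Egr1, and 102661_at for Egr2. Of these 3, 98579_at and 102661_at passed the filter on dim signals, as did 7453 probe sets in all. Egr3 and Egr4 had no probe set annotated to their single symbol, so they were not measured. The related factor Wt1 was on the array but dim.

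The animals were wild-type C57Bl6 mice that underwent monocular enucleation at postnatal day 20 and were killed 4 days later, at postnatal day 24. The deprived group is the cortex contralateral to the removed eye (4 arrays), and the non-deprived group is the cortex ipsilateral to it (4 arrays). Both groups come from operated animals, with no unoperated mice. A value called lower is therefore lower than in the other hemisphere. The labels name 4 operated mice, the design text speaks of pooled samples, and no label says that an array holds 1 animal, so the p-values reflect variation among these arrays that may be technical only.

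The EGR proteins bind GC-rich sites in promoters through zinc fingers, and the NAB proteins bind to EGR proteins and hold back their activity. Neurons switch on both genes within minutes of synaptic activity, through calcium entry, MAP kinase signalling and the factors SRF, ELK and CREB bound at their promoters. In visual cortex Egr1, also called zif268, is widely used as a marker of recent visual activity. Egr2, also called Krox20, patterns the embryonic hindbrain and drives myelin genes in Schwann cells of peripheral nerve, and in cortex it is another activity-induced gene.

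Arrays had median signals of 183 to 209, and the correlation of log2 values between any pair of arrays was 0.948 to 0.975. Arrays of the same number in the sample titles varied together (see the processing notes), so same-numbered arrays are set side by side as pairs throughout. The neuronal markers Snap25, Stmn2, Syt1, Nefl, Nefm, Camk2a and Nrgn were all above the filter, which makes 7 of the 7 neuron markers on the array. The 4 choroid plexus markers on the array (Ttr, Kl, Folr1 and Aqp1) were all dim.

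Egr1 signal was lower in deprived than in non-deprived cortex in every pair. Probe set 98579_at had signals of 3665, 5004, 3200 and 4203 in deprived arrays 1 to 4, against 5758, 9660, 6099 and 5294 in non-deprived arrays 1 to 4. The highest deprived array (number 2) lay below the lowest non-deprived array (number 4), so the groups did not overlap, but the gap between them was small. Both arrays numbered 2 were the brightest of their groups. The means were 4018 ± 775 in deprived and 6703 ± 1999 in non-deprived cortex (SD, n = 4 each), and the larger spread of the non-deprived group came mainly from array 2. Within pairs 1 to 4 the signal changed by -36.4%, -48.2%, -47.5% and -20.6%. On the log2 scale of signal plus pseudocount, used for every difference here, the pairs gave -0.65, -0.95, -0.93 and -0.33. Pair 4 thus had the smallest difference, set by both a comparatively high deprived and the lowest non-deprived value.

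The mean log2 difference of Egr1 was -0.71 ± 0.20 (SE), a fold of 0.610. An exact two-sided permutation test over the 70 ways to assign 4 of 8 arrays gave p = 0.0286, the smallest it can give. The sign-flip test over the 4 pairs gave an exact p = 0.125, also the smallest possible. The groups of Egr1 overlapped after quantile scaling, where the log2 difference was -0.67 and the exact permutation p was 0.0571.

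The other Egr1 probe set did not show this pattern. Probe set 161802_i_at had signals of 57.1, 70.2, 123 and 15.5 in deprived arrays 1 to 4, against 19.8, 32.1, 86.0 and 86.0 in non-deprived arrays 1 to 4. It was higher in the deprived array of pairs 1, 2 and 3 and much lower in pair 4, and the groups overlapped widely. All but 1 of its signals lay under 110, the signal at the filter, and its suffix marks a probe set built from fewer unique probes than usual. In the fit without a filter its log2 difference was 0.16 ± 0.48 (SE), with an exact permutation p = 0.83. The estimates of the 2 Egr1 probe sets thus differ in sign, but the error of the dim one spans values well below and above 0.

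**Figure D1:**
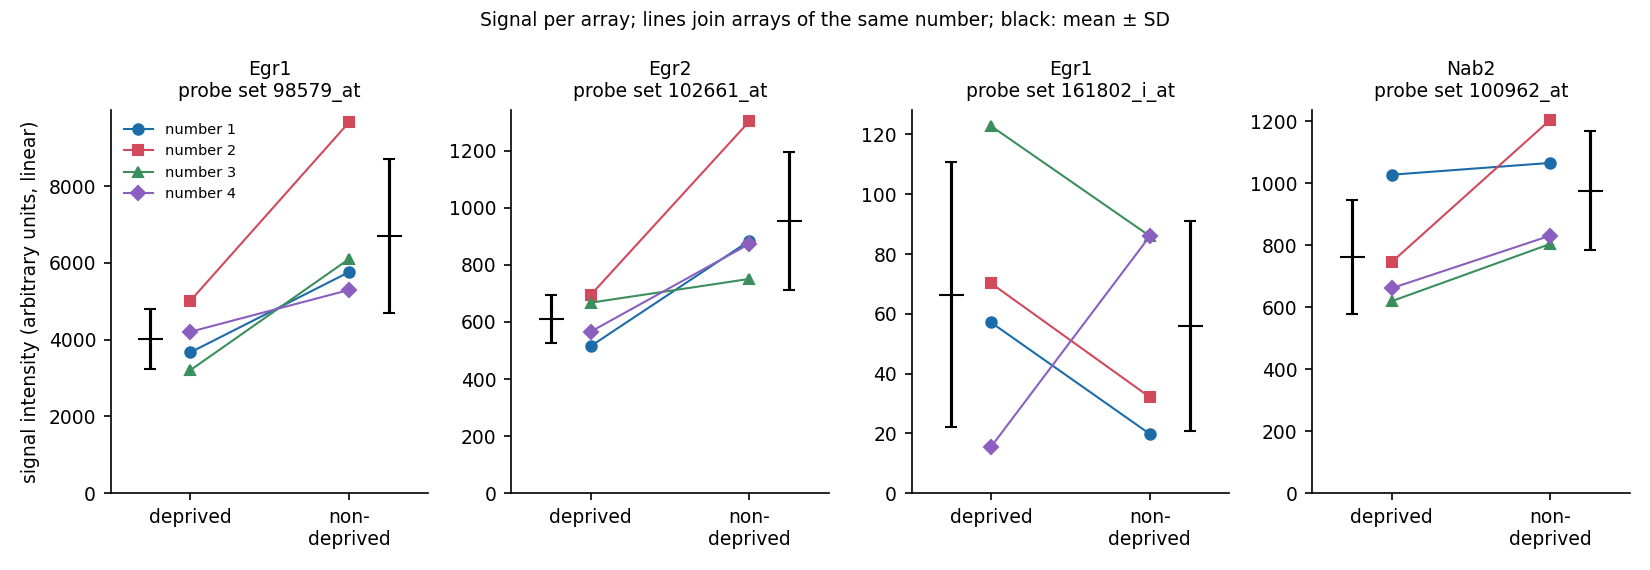
Linear signal intensity (arbitrary units, each axis from 0) of Egr1, Egr2, the dim Egr1 probe set and the co-repressor gene Nab2 on each array. Lines join the deprived (left) and non-deprived (right) array of the same number, and black bars give mean ± SD (n = 4). Deprived arrays of Egr1 (98579_at) sit between 3200 and 5004 and non-deprived arrays between 5294 and 9660, while the dim probe set runs the other way in 3 of 4 pairs.

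Egr2 signal was also lower in deprived cortex in every pair. Probe set 102661_at had signals of 515, 694, 668 and 566 in deprived arrays 1 to 4, against 884, 1304, 751 and 874 in non-deprived arrays 1 to 4. The groups did not overlap. Array 2 was again the brightest of each group, and in the non-deprived group it stood clear of the other 3. The means were 611 ± 84.4 in deprived and 953 ± 241 in non-deprived cortex (SD, n = 4 each). Within pairs 1 to 4 the signal changed by -41.8%, -46.7%, -11.1% and -35.2%, and the log2 differences were -0.76, -0.89, -0.17 and -0.61. Pair 3 had the smallest difference, because its non-deprived array was the dimmest of that group while its deprived array was the second brightest of its own. The mean log2 difference was -0.61 ± 0.18 (SE), a fold of 0.655, with an exact permutation p = 0.0286 and an exact sign-flip p = 0.125, each the smallest possible.

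The promoter set used here held no window of Egr1, so of Egr1 and Egr2 only Egr2 was searched. The 5 annotated promoter windows of Egr2 run from 250 bases before to 50 after a transcript start in RefSeq. They were searched for letters that SRF, ELK and CREB are known to read, which are the SRF site called the CArG box (CC, any 6 of A or T, then GG), CCGGAA as an ETS core, and TGACG, the core of the cyclic AMP response element. Of the 5 windows, 4 held a CArG box, 1 the ETS core and 3 the letters TGACG or their complement. Starts of 3 of them lie close together, so these 3 windows overlap and share 1 CArG box. The bases before the start are shown for the first 2 starts whose windows hold a CArG box, because SRF and CREB sites are known to carry activity signals to genes of this kind. Capitals mark the CArG box in both, the ETS core in the more upstream window and TGACG or its complement in the more downstream one, with both strands searched.
Egr2, more upstream start, GRCm38.p6 chr10:67537316-67537565, plus strand: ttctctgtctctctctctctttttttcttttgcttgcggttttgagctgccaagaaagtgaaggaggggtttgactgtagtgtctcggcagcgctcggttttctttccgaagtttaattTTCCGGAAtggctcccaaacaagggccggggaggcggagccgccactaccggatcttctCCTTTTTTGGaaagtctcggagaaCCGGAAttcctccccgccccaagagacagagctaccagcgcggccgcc
Egr2, more downstream start, GRCm38.p6 chr10:67537619-67537868, plus strand: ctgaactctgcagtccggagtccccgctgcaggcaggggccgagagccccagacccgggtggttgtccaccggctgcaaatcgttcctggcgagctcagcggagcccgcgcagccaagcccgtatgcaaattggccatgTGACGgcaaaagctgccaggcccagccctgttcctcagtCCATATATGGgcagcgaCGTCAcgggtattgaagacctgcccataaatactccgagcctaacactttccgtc
In the more upstream window the CArG box lay 72 to 63 bases before the start, with an ETS core 48 to 43 bases before it and 2 overlapping ETS cores, on opposite strands, 131 to 124 bases before it. In the more downstream window the CArG box also lay 72 to 63 bases before the start, between a TGACG at 111 to 107 and its complement at 55 to 51 bases. A CArG box was present in 1.63% of all 32851 windows of this length, the ETS core in 14.9% and TGACG in 20.8%. The annotated Egr2 gene begins further upstream, so both stretches lie within it, ahead of internal starts. These matches describe the letters only, and binding was not measured.

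Egr1 and Egr2 could not be told apart in the size of their difference. The log2 value of Egr2 minus that of Egr1 averaged -2.68 ± 0.297 on deprived and -2.78 ± 0.188 on non-deprived arrays (SD, n = 4 each). This within-array value serves only for the comparison of groups, since signals of different probe sets are not on a common scale. The difference between the groups was 0.10, exact permutation p = 0.657. Inverting that test gave an interval of -0.28 to 0.76, with a confidence of at least 95% because few p-values are possible. The difference was positive in 2 of 4 pairs, at -0.11, 0.05, 0.76 and -0.28 for pairs 1 to 4. Pair 3 stood apart: Egr1 had 1 of its largest differences there and Egr2 its smallest. Without deprived replicate 3 the value was -0.04, so even its sign rests on that array.

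**Figure D2:**
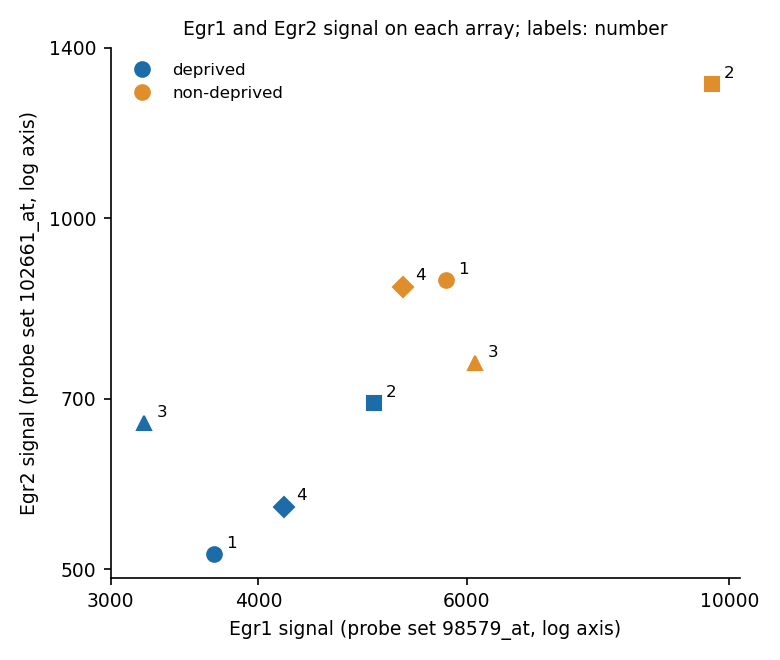
Egr1 signal (98579_at) against Egr2 signal (102661_at) on each of 8 arrays, both axes logarithmic, with deprived arrays in blue and non-deprived arrays in orange and the array number beside each point. The groups do not overlap on either axis, and non-deprived array 2 (9660 and 1304) lies far from the rest.

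Array 2 also decided how closely the genes moved together within groups. After each group's mean was subtracted, log2 values of Egr1 and Egr2 correlated at r = 0.69 over the 8 arrays, with a Spearman rho of 0.26. Without the arrays numbered 2 the same r was -0.66 over 6 arrays, and without the arrays numbered 3 it was 0.98. These are descriptions of few arrays, and since the groups themselves do not overlap no pooled test of the relation was made.

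Across all 7453 probe sets, limma's moderated test with Benjamini-Hochberg adjustment called 0 lower (0%) and 0 higher (0%) at an adjusted p under 0.05. At an unadjusted p under 0.05 it had 91 lower (1.22%) and 108 higher (1.45%). Egr1 had an unadjusted limma p of 0.00384, rank 15 of 7453 by p, and Egr2 of 0.00616, rank 24, but the adjusted p was 0.995 for each. With the array number as a block the limma standard error was 0.12 for Egr1 and 0.14 for Egr2, the ranks were 8 and 20, and the adjusted p were 0.152 and 0.580. That fit also called 0 probe sets (0%). Groups that did not overlap, with deprived below non-deprived, occurred in 0.805% of the 7453 probe sets, and lower values in 4 of 4 pairs in 6.92%. Egr1 and Egr2 met both of these criteria, as 2 of the 2 members that passed the filter. Their selection was made with earlier results of these data known, so this count is a description.

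**Figure D3:**
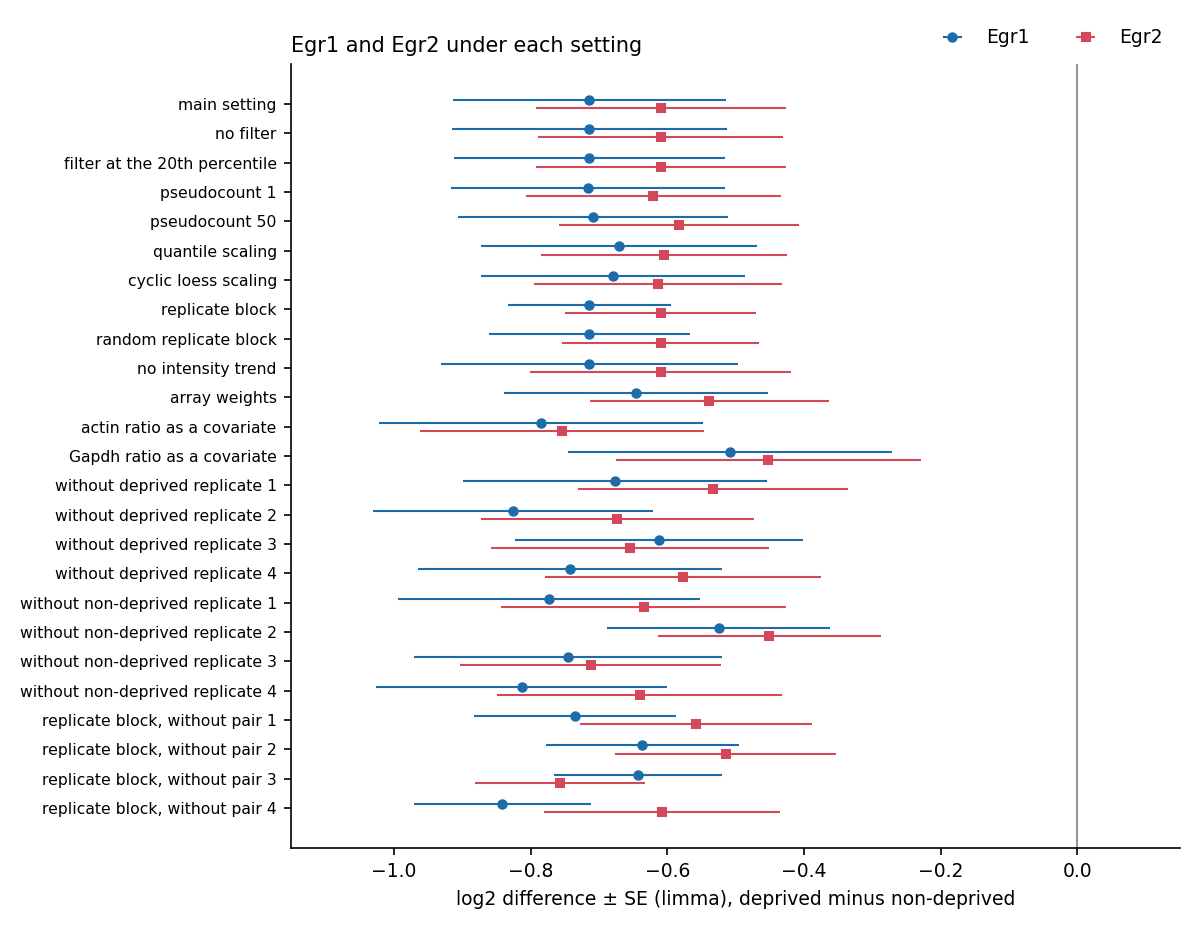
Log2 difference of Egr1 (98579_at, circles) and Egr2 (102661_at, squares), deprived minus non-deprived, with its limma SE, under the main setting and 24 alternatives. Egr1 lies between -0.84 and -0.51 and Egr2 between -0.76 and -0.45, all below 0.

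Of the co-regulators, the NAB co-repressors differed from one another. Nab2, which is itself induced by activity and by EGR proteins, had signals of 1027, 745, 619 and 661 in deprived arrays 1 to 4, against 1065, 1204, 804 and 831 in non-deprived arrays 1 to 4. It was lower in 4 of 4 pairs, barely so in pair 1, and the groups overlapped because array 1 was high in the deprived group. Its log2 difference was -0.36 ± 0.19 (SE), exact permutation p = 0.143, both without regard to pairs. With the array number as a block its SE was 0.13 and its adjusted limma p was 0.703. Nab1, the other co-repressor, had 709, 597, 575 and 518 in deprived against 756, 531, 515 and 521 in non-deprived arrays 1 to 4. It was lower in 2 of 4 pairs, with a log2 difference of 0.06 ± 0.17 (SE). The difference between Nab2 and Nab1 was not tested.

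The co-activator Crebbp, a histone acetyltransferase known to bind EGR1, went the other way. Its signals were 929, 1581, 1463 and 1101 in deprived against 796, 1136, 978 and 840 in non-deprived arrays 1 to 4, higher in 4 of 4 pairs with overlapping groups. Its log2 difference was 0.41 ± 0.19 (SE), with an exact permutation p = 0.143, both without regard to pairs. With the array number as a block its SE was 0.11 and its adjusted limma p was 0.636. The DNA methyltransferase gene Dnmt3a had 0.47 ± 0.38 (SE) at a low signal and was higher in 3 of 4 pairs, and Hcfc1, a chromatin cofactor, had -0.02 ± 0.13 (SE). Over the list of 6 co-regulators, 5 were measured, 2 lay below 0 and 0 passed limma's adjusted threshold. The list's median was 0.06, against 0.02 over all 5675 measured genes.

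In the promoter window of Nab1, the 250 bases before the start held the EGR motif GCGNGGGCG at 3 places, counting both strands. The window of Nab2 held none. The motif is in 5.55% of all windows and in the windows of 13.1% of measured genes. The bases before the Nab1 start are shown, with the motif, or its complement, in capitals.
Nab1, GRCm38.p6 chr1:52500449-52500698, minus strand: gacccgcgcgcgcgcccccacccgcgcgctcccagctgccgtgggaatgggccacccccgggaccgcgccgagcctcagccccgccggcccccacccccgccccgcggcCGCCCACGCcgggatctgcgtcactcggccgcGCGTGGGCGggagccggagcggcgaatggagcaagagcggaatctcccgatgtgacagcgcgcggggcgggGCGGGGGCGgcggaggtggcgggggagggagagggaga
The matches lay 141 to 133, 109 to 101 and 38 to 30 bases before the start. This start lies inside the annotated Nab1 gene, so the printed bases do too. The absence of a match in the Nab2 window says only that these letters are not in it.

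**Figure D4:**
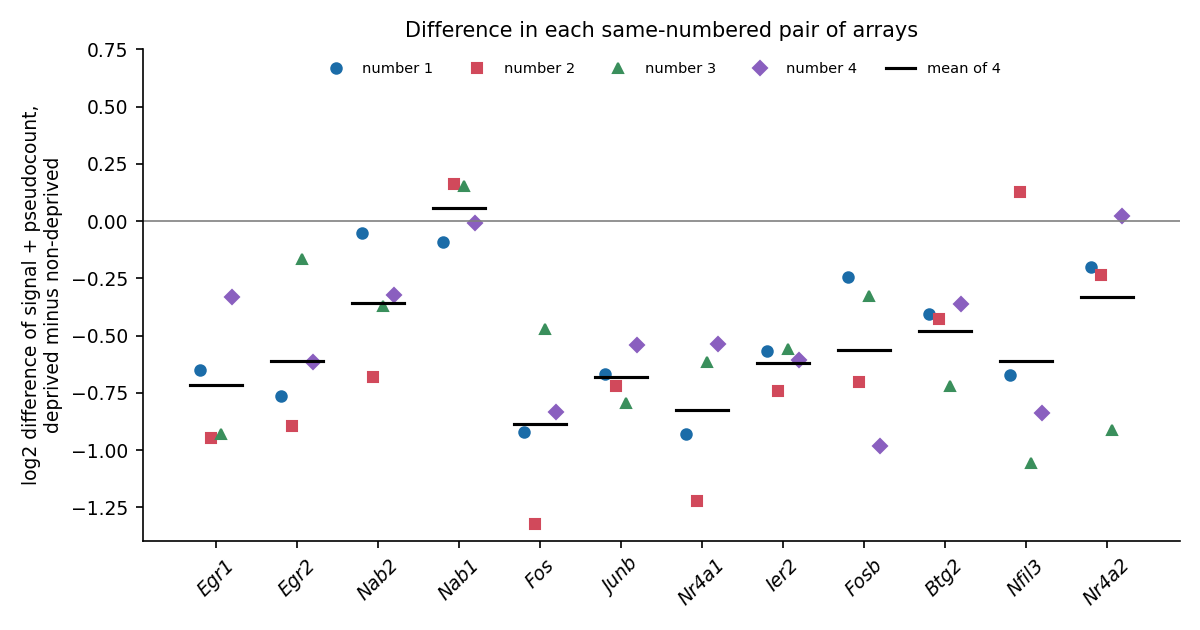
Log2 difference (deprived minus non-deprived) in each same-numbered pair of arrays for Egr1, Egr2, the NAB genes and 8 other immediate-early genes, with the mean of the 4 pairs as a black line. Egr1, Egr2, Nab2, Fos, Junb, Nr4a1, Ier2, Fosb and Btg2 have all 4 points below 0, and Nab1 lies on either side of it.

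Genes reported elsewhere as targets of EGR proteins lay on either side of 0. Of 23 on the list, 18 were on the array and 13 passed the filter. Of these, 6 lay below 0 and 7 above, against 46.1% of all measured genes below 0, and 0 passed the adjusted limma threshold. Their median log2 difference was 0.04. The smallest unadjusted p belonged to Th (tyrosine hydroxylase, which makes catecholamines), at 0.56 ± 0.30 (SE). Its mean signal was 190 ± 60.1 in deprived and 125 ± 49.3 in non-deprived cortex (SD, n = 4 each), with a lower value in pair 1. Mmp14, a membrane metalloprotease, had 0.28 ± 0.16, and Ache, acetylcholinesterase, had -0.28 ± 0.19 (SE). Nab2 belongs to this list as well. Of the 13 genes, 0 had groups that did not overlap with deprived lower, against 0.828% of all measured genes, and 2 of them, Nab2 and Psen2, were lower in all pairs, against 7.44% of all genes.

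Genes that EGR2 drives in Schwann cells showed small differences of the same sign. All 6 measured of the 9 listed lay below 0, against 46.1% of all measured genes. Their median was -0.12, and 0 passed the adjusted limma threshold. Sc5d, an enzyme of cholesterol synthesis, had -0.25 ± 0.22 (SE) and was lower in 4 of 4 pairs. The myelin genes Pmp22, Mag and Gjb1 had -0.13 ± 0.19, -0.11 ± 0.16 and -0.17 ± 0.31 (SE). Mbp and Ndrg1 lay nearest 0, at -0.02 ± 0.12 and -0.05 ± 0.20 (SE). None of these differences exceeded its standard error by more than a small margin. In the brain, Mag, Mbp and Gjb1 mark oligodendrocytes, and of 7 measured oligodendrocyte markers 6 lay below 0. Their summed signal was 21443 to 23446 in deprived and 19133 to 26369 in non-deprived arrays, so the ranges overlapped.

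Genes for the signalling that leads to Egr1 and Egr2 lay mostly above 0. Of 31 listed, 15 were on the array and 10 passed the filter. Of these 10, 2 lay below 0, against 46.1% of all measured genes, and 8 above. Their median was 0.09, and 0 passed the adjusted limma threshold. Mef2d, an activity-regulated transcription factor, had 0.30 ± 0.21 (SE) and was higher in 4 of 4 pairs. Cacna1c, an L-type calcium channel subunit, had 0.24 ± 0.17, Camk4, a calcium-dependent kinase that acts on CREB, had 0.23 ± 0.23, and Grin2a, an NMDA receptor subunit, had -0.23 ± 0.28 (SE). Creb1, Braf, Elk3, Elk4 and Rps6ka3 were dim. Of the 10, 1 was higher in all pairs, against 8.85% of all genes.

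Other immediate-early transcription factors lay mostly below 0, like Egr1 and Egr2, a pattern known from earlier results of these data. Of 26 listed, 18 were measured, and 15 of these lay below 0, against 46.1% of all measured genes, with a median of -0.26. Groups did not overlap, with deprived lower, for 5 of the 18 (Fos, Junb, Nr4a1, Ier2 and Fosb), against 0.828% of all measured genes, and 7 of the 18 were lower in all pairs, against 7.44%. Set against these 5, whose log2 differences ran from -0.89 for Fos to -0.56 for Fosb, Egr1 at -0.71 and Egr2 at -0.61 lay within the range. Neighbours in the order of these 7 genes were closer together than their errors, as each SE was between 0.15 and 0.20. Ier2, which encodes a nuclear immediate-early protein, had the most even pairs, at -0.57, -0.74, -0.56 and -0.61, against a span of -0.95 to -0.33 for Egr1 and of -0.89 to -0.17 for Egr2. Btg2, an antiproliferative co-regulator, had -0.48 ± 0.18, Nfil3, a bZIP repressor, had -0.61 ± 0.24, and Nr4a2, an orphan nuclear receptor, had -0.33 ± 0.18 (SE).

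**Figure D5:**
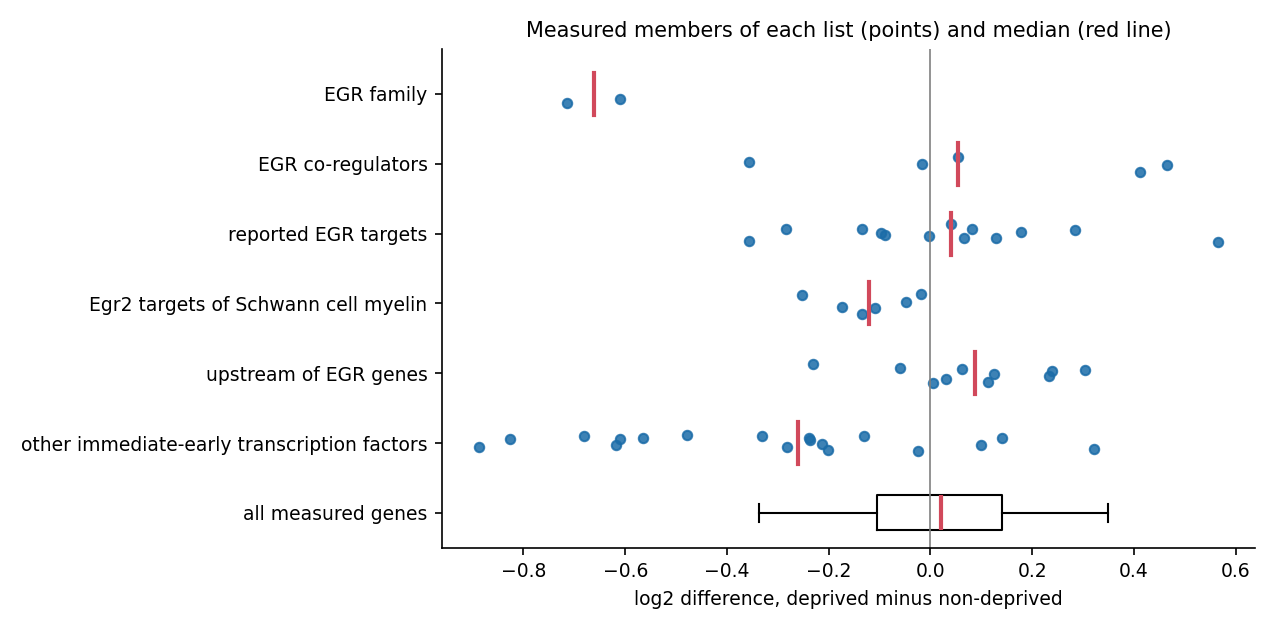
Log2 difference (deprived minus non-deprived) of each measured member of 6 gene lists (points) with the list's median (red line), above a box of all 5675 measured genes (box: quartiles, whiskers: percentiles 5 and 95). Egr1 and Egr2 (-0.71 and -0.61) lie left of the lower whisker, while the targets have a median of 0.04.

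The transcripts whose pattern over the 8 arrays was most like that of Egr1, by Pearson's r of log2 values, were Rasd1 (0.95), a dexamethasone-induced Ras-like protein, Cct5 (0.94), a chaperonin subunit, Psme4 (0.94), a proteasome activator, Bdnf (0.94), a secreted neurotrophin, and Nr4a1 (0.93). For Egr2 they were Fos (0.95), Nr4a1 (0.94), Cct5 (0.90), a second probe set of Nfil3 (0.89) and Rgs8 (0.89), a regulator of G-protein signalling. Egr2 ranked 9 among 6750 candidates for Egr1 (r = 0.88), and Egr1 ranked 8 for Egr2. Part of each r is the step between the groups, which these genes share.

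Different genes headed the order once that step was removed. With each group's mean subtracted, the closest to Egr1 were Ncl (0.97), nucleolin, Klf4 (0.97), a zinc-finger factor, Psme4 (0.97), Hsd17b4 (0.96), an enzyme of peroxisomes, and Las1l (0.96), a ribosome maturation factor. The closest to Egr2 were Aldh3a2 (0.98), an aldehyde dehydrogenase, Ei24 (0.97), Fyn (0.97), a tyrosine kinase, Cradd (0.97), a death-domain adaptor, and Zfand6 (0.97). Egr2 was then at rank 376 for Egr1, and Egr1 at rank 654 for Egr2. Psme4 was the 1 gene near the top for Egr1 by both measures, with 307 ± 68.9 in deprived and 412 ± 116 in non-deprived cortex (SD, n = 4 each). All these are the highest of 6750 values over 8 arrays and are given as descriptions.

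All measured genes were also split by whether their promoter windows held these letters, as a description with no test. Of 4589 measured genes with a promoter window, 599 held GCGNGGGCG on either strand, and their median log2 difference was 0.01, with 47.4% below 0. The 3990 genes without it had a median of 0.02, with 46.2% below 0. For the 87 genes with a CArG box, Egr2 among them, the median was -0.0006 with 50.6% below 0, against 0.02 and 46.3% for the 4502 without. Egr1 had no window and is not counted in these splits. Of 1694 genes with TGACG on either strand 49.6% lay below 0 (median 0.00), against 44.4% of the 2895 without it (median 0.03). Of 1429 genes with the ETS core 49.1% lay below 0 (median 0.00), against 45.1% of the 3160 without it (median 0.03). The full cyclic AMP response element, TGACGTCA, was in 164 genes, of which 51.2% lay below 0, against 46.2% of the 4425 without it. Of the 15 other immediate-early factors with a window, 0 held a CArG box, against 1.9% of measured genes, and 7 held the EGR motif, against 13.1% (Fosb, Fosl2, Nr4a1, Nr4a2, Btg2, Klf4 and Nfil3). TGACG or its complement was in 10 of the 15, Fos, Junb and Nr4a1 among them, against 36.9% of measured genes. The ETS core was in 2 of the 15 (Nr4a1 and Per1), against 31.1%, and the full element TGACGTCA in 1 (Btg2), against 3.57%. The windows reach only 250 bases before a start, and only exact letters were counted. An absent match therefore does not show that a gene lacks such a site.

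The arrays of the groups also differed in their dim signals. The integrity ratios are given beside them, by group and by pair, though neither passed its permutation test. The 10th percentile of signal was 17.2 ± 2.68 on deprived and 13.5 ± 0.718 on non-deprived arrays (SD, n = 4 each, exact permutation p = 0.0286). It was higher on the deprived array of every pair. So was the median signal, at 200 ± 7.86 on deprived and 189 ± 6.47 on non-deprived arrays (SD, exact permutation p = 0.114). The ratio of 3' to 5' control probe sets, which reflects RNA integrity, was 1.64 ± 0.239 on deprived and 1.39 ± 0.179 on non-deprived arrays for actin (exact permutation p = 0.171). For Gapdh it was 0.842 ± 0.0345 on deprived and 0.898 ± 0.0543 on non-deprived arrays (exact permutation p = 0.143). The actin ratio was higher on the deprived array in 3 of 4 pairs. The Gapdh ratio was lower on the deprived array of every pair, with the widest gap in pair 2, at 0.801 against 0.977. Adjusted for the actin ratio, the log2 differences were -0.78 for Egr1 and -0.75 for Egr2, and adjusted for the Gapdh ratio they were -0.51 ± 0.24 and -0.45 ± 0.22 (SE). The differences were thus as large or larger with the first and smaller with the second, where the unadjusted limma p were 0.0563 and 0.0687.

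Markers of thalamus, which lies under the cortex, were higher in 5 of 6 measured genes, with a median log2 difference of 0.16. Over all 5675 measured genes, 3060 lay above 0. Of the 6, 3 (Tcf7l2, Zic1 and Rgs16) were higher in all pairs, against 8.85% of all genes. The summed signal of the 6 was 2650 to 3245 in deprived and 2493 to 2857 in non-deprived arrays. This sum was higher on the deprived array of every pair, and none of the 6 was dim. Interneuron markers lay below 0 in 6 of 8, against 46.1% of all measured genes. The neuropeptide genes Npy (-0.60 ± 0.34), Sst (-0.49 ± 0.27) and Cck (-0.22 ± 0.18, SE) were lower in all pairs, against 7.44% of all genes. The other markers did not share this: Gad1, Gad2, Slc32a1 and Pvalb lay near 0, at 0.02, -0.04, -0.06 and 0.03, and Vip had -0.16. The sum of the 8 interneuron markers was lower in 4 of 4 pairs, with summed signals of 22388 to 29292 in deprived and 25115 to 31363 in non-deprived arrays. Cck was the brightest of them, at 8463 ± 1528 in deprived and 9911 ± 2051 in non-deprived cortex (SD, n = 4 each). Neuron markers lay below 0 in 5 of 7 with a median of -0.05, summing to 30468 to 35695 in deprived and 31100 to 37272 in non-deprived arrays. Of the 4 genes on the array that were listed as hippocampal markers, only Wfs1 was not dim. It had 821 ± 91.1 in deprived and 997 ± 80.4 in non-deprived cortex (SD, n = 4 each). Its groups did not overlap, with deprived lower, as for 0.828% of all measured genes. Its log2 difference was -0.28 ± 0.14 (SE, exact permutation p = 0.0286). The other listed genes, Prox1, Dsp and Lct, were too dim to set beside it. Their mean signals were 45.4, 90.4 and 92.7 in deprived and 26.4, 83.5 and 69.9 in non-deprived cortex. Whether the Wfs1 signal came from hippocampal tissue was not tested. The part of these measures in the lower Egr1 and Egr2 signal was not tested. In tissue of mixed cells, fewer cells that express a gene and less transcript per cell cannot be told apart.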

How the data were processed

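RNA of visual cortex was labelled with biotin as cRNA and hybridised to 1-colour arrays, per the labels' protocols. Each deposited value is a linear intensity of 1 probe set that the authors computed with MAS5, per the submitters' processing notes, with version and settings not given in the sources used here. Such values join perfect-match and mismatch probes and put each array on 1 trimmed mean (2% trimmed mean 500.3 here). The number of arrays limits the precision, and 0 sample columns were left unused.

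The 66 control probe sets were removed, arrays rescaled to an equal trimmed mean and log2(signal + 15.2) taken (the 10th percentile of signal served as pseudocount), so that differences of dim genes are understated. Probe sets with a mean log2 value above the 40th percentile were kept (7453 of 12422, a signal of about 110). In the platform annotation 10833 probe sets had 1 symbol, 396 several and 1193 none. Of those with 1 symbol, 10817 were found in the gene table of GRCm38.p6, which gave their names. A gene in a list was represented by its brightest probe set. The test was that of limma 3.58.1 under R 4.3.3 (lmFit, eBayes with intensity trend, two-sided, Benjamini-Hochberg over all kept probe sets, threshold 0.05), and single probe sets also with exact permutation tests. The 3 probe sets of Egr1 and Egr2 were tested in this way. The fits were tested on simulated data.

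The members, lists and motifs were chosen with earlier results of these data known. The text names all Egr1 and Egr2 probe sets and each measured co-regulator gene, by its brightest probe set only. Of the other lists it names mainly the members with the smallest p, and it names the 5 transcripts most like each gene. Deviations from group means correlated at 0.16 to 0.42 between same-numbered arrays and at -0.27 to 0.12 between others. All 4 pairs exceeded the limit of 0.1, so fits with the array number as a block are reported too. They are given for Egr1, Egr2, Nab2, Crebbp and the counts of called probe sets. The SE of every other gene is that of the fit without the block, and all permutation tests leave the pairing out. Promoter windows came from RefSeq (GRCm38.p6). Plots used matplotlib 3.10.9 and Python 3.11.15.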

Additional observations from a re-analysis of the deposited data

Results flagged for a closer look

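In 4 of 108 groups of 4 arrays examined, 1 array stood far from the other 3, where chance flags about 1 in 20 groups (5.4 here). Nab1 in non-deprived cortex had a gap of 0.932 of the group's range, set by array 1 at 756 against 515 to 531 on the others. Pdgfa, a growth factor gene of the target list, had 0.884 in non-deprived cortex, where array 2 had 1157 against 1684 to 1753. Junb and Btg2 had 0.858 and 0.855 in deprived cortex, both set by array 4, at 1129 against 823 to 866 for Junb and 2124 against 1419 to 1522 for Btg2. No group of an Egr1 or Egr2 probe set met this criterion.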

How the results depend on the processing

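Egr1 and Egr2 kept their sign and passed no adjusted threshold under all 24 alternatives each: 2 other filters, 2 pseudocounts, quantile and cyclic loess scaling, a fixed and a random replicate block, no intensity trend, array weights, 2 integrity covariates, each array left out, and, chosen after seeing the data, the replicate block with each pair left out. Their log2 differences ran from -0.84 to -0.51 for Egr1 and from -0.76 to -0.45 for Egr2, and from -0.83 to -0.52 and -0.71 to -0.45 when 1 array was left out. The lowest adjusted p was 0.152 for Egr1, with the replicate block (log2 difference -0.71), and 0.253 for Egr2, with that block and without pair 3. The block changed no call. The difference between Egr2 and Egr1 (0.10, and 0.10 with the block) ran from -0.0431 (without deprived replicate 3) to 0.17 when 1 array was left out, and was -0.11 with the replicate block without pair 3. The cause was not tested. The count of called probe sets was 0 in both directions throughout, except for 1 higher (Tmem129, log2 difference 1.45, adjusted p = 0.0412 in limma) with the block without pair 4, which has fewer samples. The medians of the 6 lists kept their sign without a filter, with quantile scaling and with the replicate block. All but 1 of the signals of the dim Egr1 probe set lie below the filter, and its error is too wide for a direction.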
